A study of Homo sapiens with 6 samples.

Results

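Metallothionein transcripts were compared between CAL-27 cells grown as an adherent layer (parental) and CAL-27 sphere cells, which the submitters obtained by suspension culture to isolate cancer stem cells. CAL-27, an established line, was derived from a human tongue squamous carcinoma, and each group had 3 RNA-seq libraries of total RNA. The sources used here give no culture media, additives or length of suspension culture. They also do not say that replicates were separate cultures, so a p-value covers only library-to-library spread, and that may be technical. The members were taken by gene symbol: the metallothionein genes MT2A, MT1E, MT1X, MT1F, MT1M and MT1G, and MTF1, 7 of the 17110 genes in the table. All 7 passed the filter for testing, a mean of at least 1 TPM over the 6 libraries, which 12261 genes passed. TPM is transcript abundance per length, scaled to the same total in each library, so a level here is a share of a library's RNA, levels of different genes can be set side by side, and sequencing depth is unknown.

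Metallothioneins are small cytosolic proteins whose many cysteines bind zinc and copper, and also toxic metals such as cadmium. MTF1 is a zinc finger transcription factor that binds metal response elements in metallothionein promoters when free zinc rises. Metallothionein genes are also induced by glucocorticoids and by oxidative stress, and MT2A and several MT1 genes are expressed in many epithelia, including the basal layer of stratified squamous epithelium.

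The genes are close copies of each other, which bears on how short reads can be divided between them. The coding sequences of MT2A, MT1E and MT1X, the 3 most abundant members here, are shown to make that likeness visible. They were read from the principal transcripts of GENCODE 29 (GRCh38, chromosome 16, plus strand), 5′ to 3′, and capitals mark the codons for cysteine.

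MT2A: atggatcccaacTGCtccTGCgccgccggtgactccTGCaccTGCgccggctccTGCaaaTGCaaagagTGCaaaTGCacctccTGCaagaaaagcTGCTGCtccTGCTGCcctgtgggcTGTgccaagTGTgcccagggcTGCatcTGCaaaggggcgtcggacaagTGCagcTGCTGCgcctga
MT1E: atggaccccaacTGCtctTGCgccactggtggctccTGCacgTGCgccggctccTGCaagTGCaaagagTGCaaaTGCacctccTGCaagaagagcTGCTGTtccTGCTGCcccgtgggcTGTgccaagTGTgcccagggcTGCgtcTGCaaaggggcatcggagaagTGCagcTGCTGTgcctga
MT1X: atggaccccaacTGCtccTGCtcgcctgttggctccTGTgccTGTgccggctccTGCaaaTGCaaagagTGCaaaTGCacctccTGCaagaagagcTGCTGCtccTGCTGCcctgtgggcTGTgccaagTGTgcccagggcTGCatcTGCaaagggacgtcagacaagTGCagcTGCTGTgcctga

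Each of these sequences has 186 bases, and 20 of its 61 codons before the stop encode cysteine. The same counts held for MT1F, MT1M and MT1G. MT2A and MT1E differed at 14 of 186 positions (92.5% identity), as did MT2A and MT1X, and over all pairs of the 6 genes identity ran from 88.7% for MT1X and MT1F to 95.2% for MT2A and MT1G. MTF1, which lies on chromosome 1, has 21 cysteine codons among 753.

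Reads were 50 bases long and single-ended, so every 50-base window of each principal transcript was looked up in the transcripts of all other genes in GENCODE 29, on both strands. Exact copies in another metallothionein gene or pseudogene were found for 4.88% of the windows of MT2A, 5.34% of MT1E and 3.59% of MT1F. The share was 7.05% for MT1M, 16% for MT1X and 20.2% for MT1G. Allowing up to 2 mismatches, it was 17.4% for MT2A, 31.5% for MT1E, 24.9% for MT1X, 10.6% for MT1F, 24.7% for MT1M and 39.5% for MT1G. A further source of shared windows was AC026461.1, a gene not counted among the metallothioneins, which holds 29.2% of the MT1X windows. The sources used here do not say how the authors assigned such reads. The values of single copies are therefore uncertain. Counting exact copies in any other gene, MT1X had the largest share of windows, 45.1%, followed by MT1G at 20.2%. Within the metallothionein genes and pseudogenes alone, MT1G had the largest share by both measures. Next came MT1X by exact copies and MT1E by windows within 2 mismatches. The sum over the 6 genes is given as well.

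**Figure D1:**
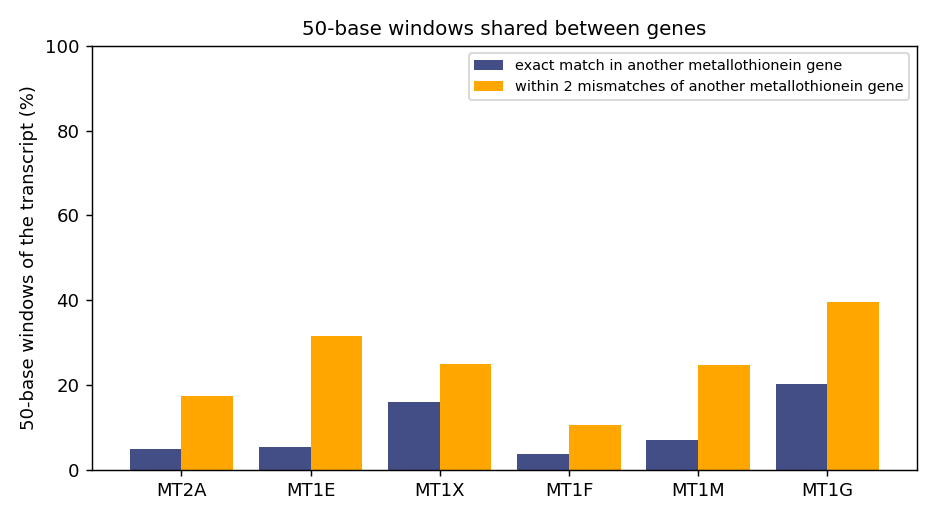
Share of the 50-base windows of each metallothionein transcript (y axis, %) that occur exactly in another metallothionein gene or pseudogene (blue) or within 2 mismatches of one (orange). MT1G has the highest bars at 20.2% and 39.5%, and MT1F the lowest at 3.59% and 10.6%.

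Promoters of 3 of the 7 members, MT2A, MT1X and MTF1, were matched in the RefSeq promoter table (GRCh38.p14). Those of MT2A and MT1X are shown because they carry the sequence that MTF1 recognises. They run 5′ to 3′ from 250 bases before the transcript start to 50 after it, at chr16:56608334-56608633 and chr16:56682220-56682519 on the plus strand. Capitals mark the core of the metal response element, searched as TGCACNC and TGCGCNC on both strands.

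MT2A promoter: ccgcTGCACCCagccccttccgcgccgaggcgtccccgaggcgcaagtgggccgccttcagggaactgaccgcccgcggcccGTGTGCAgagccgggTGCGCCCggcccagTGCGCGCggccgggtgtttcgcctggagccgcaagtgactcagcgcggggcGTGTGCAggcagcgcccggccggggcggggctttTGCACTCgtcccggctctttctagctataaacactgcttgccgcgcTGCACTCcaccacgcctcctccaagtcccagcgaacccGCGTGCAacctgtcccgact
MT1X promoter: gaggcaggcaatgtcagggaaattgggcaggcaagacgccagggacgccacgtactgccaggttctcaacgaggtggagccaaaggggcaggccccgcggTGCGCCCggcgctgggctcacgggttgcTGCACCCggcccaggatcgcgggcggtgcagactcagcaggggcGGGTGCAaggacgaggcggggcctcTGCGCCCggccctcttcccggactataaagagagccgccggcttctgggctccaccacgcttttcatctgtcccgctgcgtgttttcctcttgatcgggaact

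The core occurred 8 times in the MT2A window and 4 times in the MT1X window, with no overlap between matches. At least 1 match was present in 29.6% of the 35116 promoter windows of the table, at least 4 in 0.601% and at least 8 in 0.0199%. The MTF1 window held none. A match in these letters is a description and not a measured binding site.

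MT2A, the most abundant metallothionein here, was higher in sphere libraries. It was the second most abundant gene of the table in every parental library, after the ferritin heavy chain FTH1, and the most abundant in every sphere library. MT2A (Entrez Gene 4502) was at 9803, 10437 and 10468 TPM in the parental libraries and at 15093, 15993 and 15551 TPM in the sphere libraries. The lowest sphere value lay above the highest parental value. The means were 10236 ± 376 and 15546 ± 450 TPM (SD, n = 3 each), 1.52-fold higher in sphere libraries, a difference of 0.60 on the log2(TPM + 1) scale (95% interval 0.51 to 0.69, limma adjusted p = 3.5e-07).

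MT1E (Entrez Gene 4493), the next most abundant metallothionein, differed far less. Its level was 2196, 2367 and 2260 TPM in parental libraries and 2586, 2457 and 2472 TPM in sphere libraries. There was no overlap between groups, but the gap between the highest parental and the lowest sphere library was narrower than the range within either group. MT1E rose 1.10-fold, by 0.14 on the log2(TPM + 1) scale (95% interval 0.05 to 0.23, limma adjusted p = 0.0078). Under median-of-ratios scaling of the TPM, which shifted the median difference of all tested genes by 0.17, the MT1E difference was 0.32.

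MT1X (Entrez Gene 4501) was the one metallothionein that fell. Its level was 589, 644 and 641 TPM in parental libraries and 439, 505 and 505 TPM in sphere libraries, with no overlap. The means of 625 ± 30.8 and 483 ± 38.1 TPM (SD, n = 3 each) differed by -0.37 on the log2(TPM + 1) scale (95% interval -0.51 to -0.24, limma adjusted p = 2.3e-04). The difference was -0.19 with median-of-ratios scaling (limma adjusted p = 0.013).

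The other 3 metallothioneins were scarce and all rose. MT1F (Entrez Gene 4494) was at 13.4, 11.4 and 13.8 TPM in parental and at 25.4, 22.5 and 21.7 TPM in sphere libraries, with no overlap. It rose 1.80-fold, by 0.80 on the log2(TPM + 1) scale (95% interval 0.61 to 0.99, limma adjusted p = 9.9e-06).

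MT1M (Entrez Gene 4499) was at 4.49, 1.26 and 6.96 TPM in parental and at 12.5, 21.7 and 11.1 TPM in sphere libraries. Both groups were widely spread, and the lowest sphere library still lay above the highest parental one. The means were 4.24 ± 2.86 and 15.1 ± 5.8 TPM (SD, n = 3 each), and the difference was 1.74 on the log2(TPM + 1) scale (95% interval 0.83 to 2.65, limma adjusted p = 0.0026).

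MT1G (Entrez Gene 4495) was listed at 0 in all 3 parental libraries, and its sphere levels were 3.34, 3.43 and 2.23 TPM (limma adjusted p = 5.1e-07). No fold is given against a group at 0. MT1G passed the filter on low values only through its sphere libraries, so a difference was bound to appear. MT1A, another metallothionein of the cluster, was listed at 1.27 TPM in sphere replicate 1 and at 0 in the other 5 libraries, and was under the filter. No level is given here for the remaining 10 metallothionein genes and pseudogenes of the list.

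MTF1 (Entrez Gene 4520), the metal-responsive activator, went the other way. Its level was 14.8, 11.8 and 13.1 TPM in parental and 9.43, 9.21 and 9.55 TPM in sphere libraries. Parental libraries were all above the sphere libraries, which lay close together. The fall of 0.45 on the log2(TPM + 1) scale (95% interval -0.63 to -0.26, limma adjusted p = 6.1e-04) corresponded to a parental level 1.41 times that of sphere libraries. With median-of-ratios scaling the difference was -0.28.

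**Figure D2:**
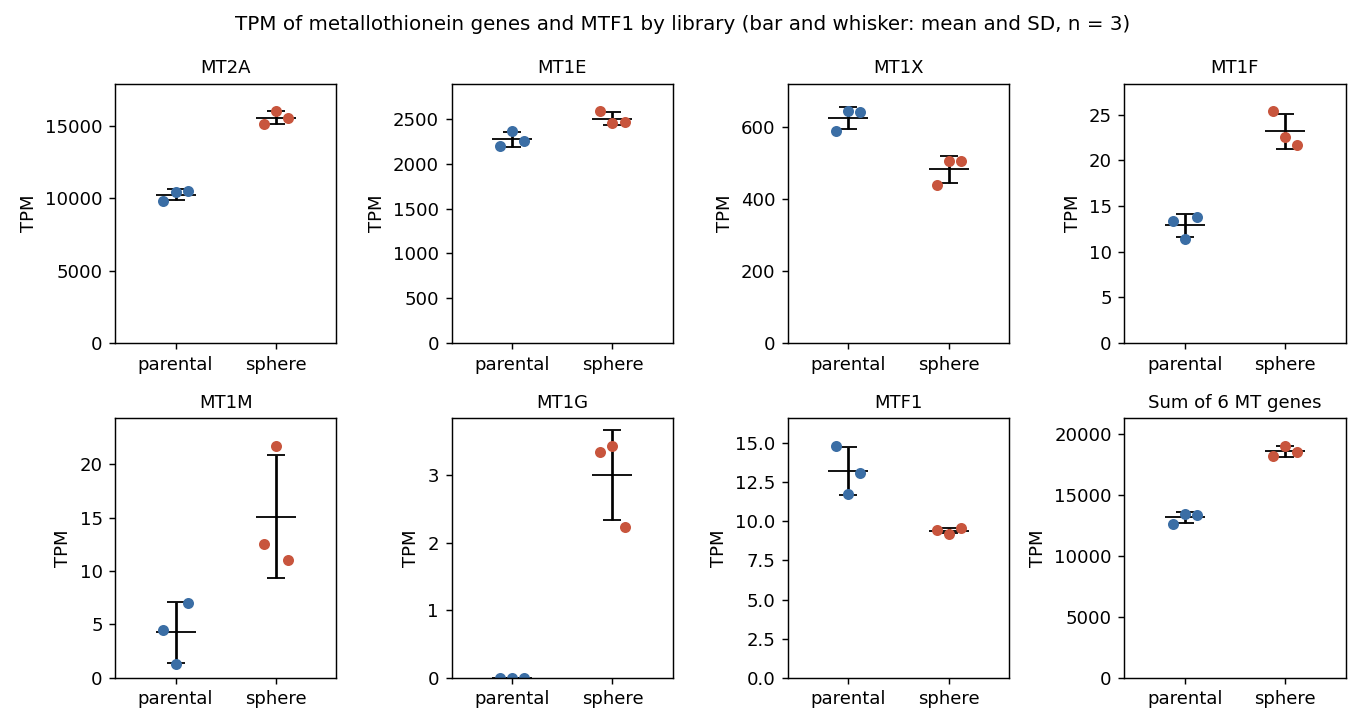
TPM (y axes, linear, from 0) of the 6 metallothionein genes, MTF1 and the summed metallothioneins in the 3 parental (blue) and 3 sphere (red) libraries, with the mean and SD of each group. The groups do not overlap in any panel, MT1X and MTF1 are lower in sphere libraries, and MT1M has the widest relative spread, from 1.26 to 6.96 TPM among parental libraries.

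In all, 5 of the 7 members were higher and 2 lower in sphere libraries, all past the threshold of 0.05. Of all 12261 genes tested with limma, 83.4% passed that threshold, 35.1% as higher and 48.2% as lower, so that the number of members that passed is close to the background. The groups did not overlap for any of the 7 members, and for 84.6% of all tested genes. Of the 6 members above 0 in every library, MT1M both passed the threshold and changed by at least 1 on the log2(TPM + 1) scale. So did 27.2% of all tested genes. The size of the MT1G difference is set by the pseudocount. The median difference was 0.60 over the members and -0.13 over all tested genes. The middle 50% of all tested genes spanned -0.68 to 0.45. MT2A, MT1F and MT1M lay above that range, and MT1E, MT1X and MTF1 within it. MT1G also lay above it, but it passed the filter only through its sphere libraries. Its higher call, its lack of overlap and its place above the range were therefore bound to appear, and it enters the counts and the median given here.

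**Figure D3:**
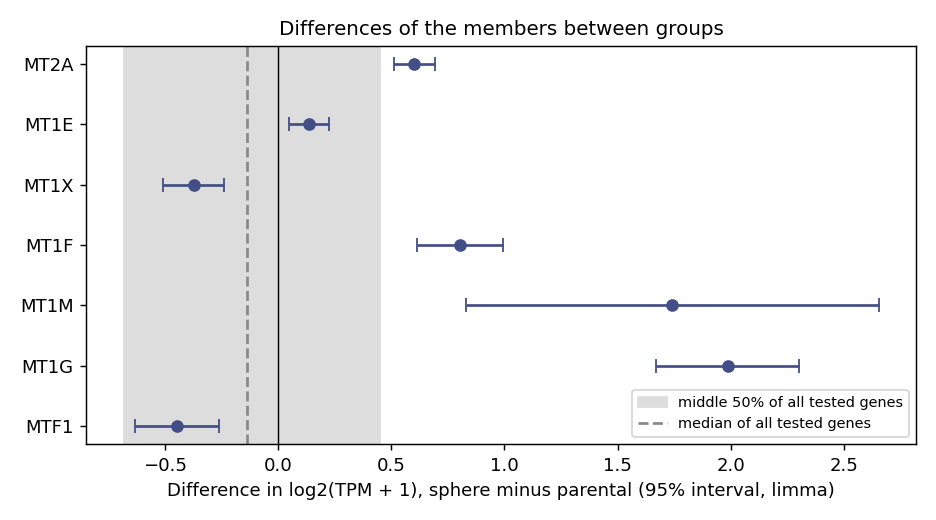
Difference in log2(TPM + 1), sphere minus parental, for each member (x axis, points with 95% intervals from limma), with the median (dashed line, -0.13) and the middle 50% (grey, -0.68 to 0.45) of all tested genes. MT2A, MT1F, MT1M and MT1G lie to the right of the grey band, and MT1X and MTF1 lie below 0. MT1G passed the filter only through its sphere libraries, so its side was fixed in advance.

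Summed over the 6 metallothionein genes, the level was 12606, 13461 and 13390 TPM in parental libraries and 18160, 19003 and 18562 TPM in sphere libraries. This sum took 1.32% ± 0.05 of all TPM in parental and 1.86% ± 0.04 in sphere libraries (SD, n = 3 each), 1.41-fold more, with no overlap. The log2 difference of the sum was 0.50, given as a description with no test. MT2A held 97.9% of the rise in the sum. The 5 MT1 genes together came to 2916 ± 111 and 3029 ± 32.2 TPM, a log2 difference of 0.06, and here the groups overlapped (a sum chosen after its members' values were seen). In bulk RNA, more RNA of a gene per cell and more cells with that RNA cannot be told apart.

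The make-up of the metallothionein transcripts also differed. MT2A held 77.8% ± 0.3 of the sum in parental and 83.7% ± 0.5 in sphere libraries, and MT1E 17.3% ± 0.4 and 13.5% ± 0.7 (SD, n = 3 each). MT1X held 4.75% ± 0.06 and 2.60% ± 0.16. The ratio of MT2A to MT1X was 16.6, 16.2 and 16.3 in parental libraries and 34.4, 31.6 and 30.8 in sphere libraries, 1.97 times as high. The ratio of MT2A to MT1E was 4.46, 4.41 and 4.63 in parental and 5.84, 6.51 and 6.29 in sphere libraries. These ratios are taken within a library and do not change with its scaling, and neither overlapped between the groups. They show unequal change and not that any one gene was constant.

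**Figure D4:**
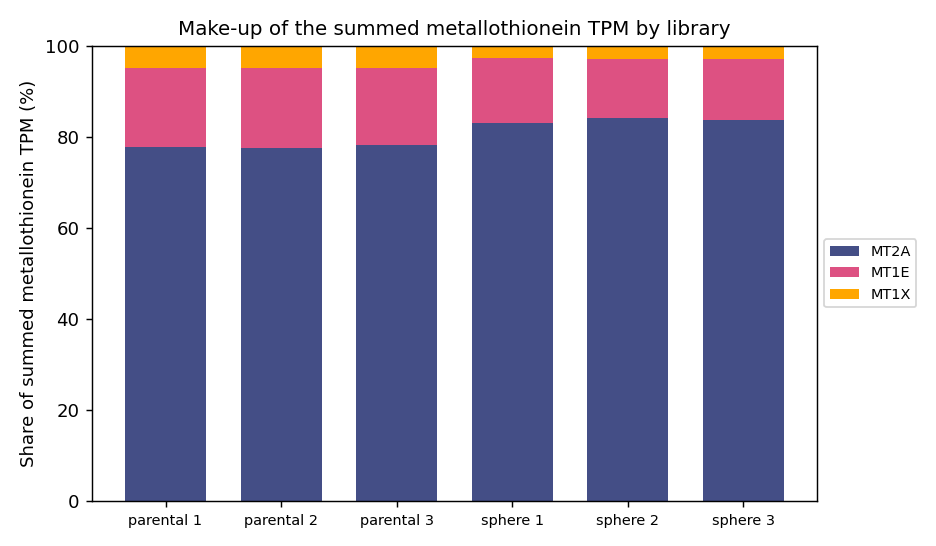
Share of the summed metallothionein TPM (y axis, %) held by MT2A, MT1E and MT1X in each library; MT1F, MT1M and MT1G, too small to see at this scale, are not drawn. MT2A takes 77.5% to 78.2% of the sum in parental libraries and 83.1% to 84.2% in sphere libraries.

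The metallothioneins kept the same order of levels in all 6 libraries: MT2A, MT1E and MT1X were far apart, and MT1F stood above MT1M, and MT1M above MT1G. Among the scarce members, MTF1 and MT1F overlapped in parental libraries (11.8 to 14.8 and 11.4 to 13.8 TPM), while in sphere libraries MTF1 lay below every MT1F value. MT1M lay below both in parental libraries. In sphere libraries it lay above MTF1, and in sphere replicate 2 it reached the range of MT1F.

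Zinc transporters, which set the cytosolic zinc that MTF1 senses, changed in both directions. Of 10 zinc exporters listed 6 were tested, of which 1 rose and 4 fell (median -0.28). Over all tested genes 35.1% rose and 48.2% fell, with a median of -0.13. The one that rose was SLC30A1, the exporter of the plasma membrane and a known target of MTF1 in mouse. SLC30A1 was at 11.1, 10.8 and 9.36 TPM in parental and at 14.7, 17.1 and 18.3 TPM in sphere libraries, with no overlap (difference of 0.63 on the log2(TPM + 1) scale, limma adjusted p = 1.1e-04). The largest fall was in SLC30A4, a zinc transporter of intracellular vesicles, from 4.47 ± 0.98 to 2.52 ± 0.29 TPM (limma adjusted p = 0.0018). With median-of-ratios scaling 1 exporter rose and 2 fell.

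Of 14 zinc importers listed 12 were tested, and 3 rose and 6 fell (median -0.15), or 4 and 5 with median-of-ratios scaling. The shares over all tested genes were 35.1% higher and 48.2% lower. The largest rise was in SLC39A2, a zinc importer of the plasma membrane found in keratinocytes. Its level was 0.44, 0.74 and 0.73 TPM in parental and 29.9, 26.9 and 28.0 TPM in sphere libraries (limma adjusted p = 2.0e-10), and it passed the filter only through the sphere libraries. SLC39A4, the intestinal zinc importer mutated in the skin disease acrodermatitis enteropathica, was at 10.8 ± 2.9 and 105 ± 9.5 TPM, and SLC39A13, a zinc transporter of intracellular membranes, at 12.7 ± 0.6 and 23.8 ± 1.3 TPM; both were named after their values were seen. The largest fall was in SLC39A14, an importer of zinc, iron and manganese, from 87.6 ± 3.7 to 24.8 ± 0.9 TPM (limma adjusted p = 6.5e-10). SLC39A10, a zinc importer that MTF1 is known to repress in mouse, was at 11.8, 12.9 and 10.9 TPM in parental and at 9.69, 10.7 and 10.2 TPM in sphere libraries. Its limma adjusted p of 0.0305 did not hold with no filter, with median-of-ratios scaling, or without parental replicate 1 or 2 or sphere replicate 1 or 3, where limma gave adjusted p of 0.0504 to 0.636. The difference of -0.20 was -0.04 with median-of-ratios scaling and between -0.20 and -0.14 in the other 5 of these settings.

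Copper is the other physiological metal that metallothioneins hold. Of 15 copper handling genes tested, 6 rose and 8 fell (median -0.22), or 6 and 7 with median-of-ratios scaling. These counts are close to the background of 35.1% higher and 48.2% lower over all tested genes (median -0.13). SOD1, the copper and zinc superoxide dismutase, had the largest fall, from 676, 608 and 643 TPM in parental to 206, 231 and 211 TPM in sphere libraries (limma adjusted p = 2.6e-09). STEAP4, a metalloreductase for iron and copper, had the largest rise, from 0.13 ± 0.05 to 3.77 ± 0.30 TPM (limma adjusted p = 4.3e-08), and passed the filter only through its sphere libraries.

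Other genes that heavy metals are known to induce did not move as one. Of 11 tested, 5 rose and 5 fell (median 0.05), or 6 and 5 with median-of-ratios scaling. Both directions were also common over all tested genes, of which 35.1% rose and 48.2% fell (median -0.13). The heat shock cochaperone DNAJB1 rose the most, from 151 ± 5.1 to 355 ± 10.6 TPM (limma adjusted p = 1.9e-09). GCLM, the modifier subunit of the enzyme that begins glutathione synthesis, fell the most, from 36.7 ± 0.8 to 7.61 ± 0.65 TPM (limma adjusted p = 1.5e-09).

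In a list of the glucocorticoid receptor and genes that glucocorticoids are known to induce, 7 of 9 tested genes rose and 2 fell (median 1.37), beside 35.1% higher, 48.2% lower and a median of -0.13 for all tested genes. The counts were the same with median-of-ratios scaling. NR3C1, the glucocorticoid receptor, was at 27.2, 25.9 and 27.2 TPM in parental and at 61.5, 61.9 and 64.4 TPM in sphere libraries (limma adjusted p = 5.1e-09). TSC22D3, a leucine zipper protein induced by glucocorticoids, rose the most, from 6.53 ± 1.31 to 32.0 ± 0.9 TPM (limma adjusted p = 4.1e-08). FKBP5, a cochaperone of the receptor and one of its usual targets, fell the most, from 38.7 ± 0.9 to 12.4 ± 1.2 TPM (limma adjusted p = 1.5e-08). Several genes of this list also respond to other signals.

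**Figure D5:**
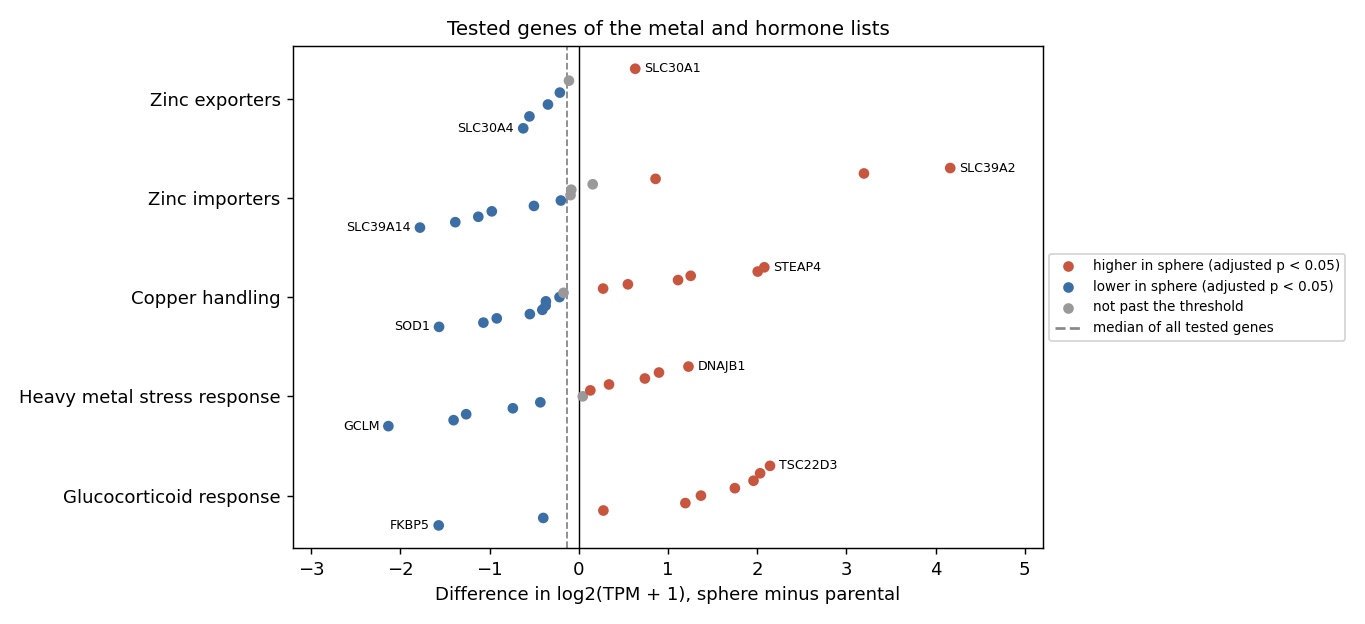
Difference in log2(TPM + 1), sphere minus parental (x axis), of the tested genes of 5 lists, 1 point per gene, coloured by limma adjusted p and direction, with the largest rise and fall named. Genes lie on both sides of 0 in every list, and the dashed line is the median of all tested genes, -0.13.

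The 6 metallothionein genes lie in one cluster on chromosome 16, and the genes around it did not share a direction. Of the 10 tested genes on each side in the RefSeq gene order, 7 rose, 11 fell and 2 did not pass (median -0.16). Over all tested genes 35.1% rose and 48.2% fell (median -0.13), so this mix is close to the background. The nearest tested gene before the cluster, BBS2, a subunit of the ciliary BBSome complex, rose from 24.4 ± 0.9 to 31.6 ± 1.5 TPM (limma adjusted p = 1.7e-04). The nearest after it, the nuclear pore gene NUP93, fell from 105 ± 3.5 to 51.2 ± 1.9 TPM (limma adjusted p = 1.6e-08).

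The tested genes whose log2(TPM + 1) profile over the 6 libraries lay closest to that of the summed metallothioneins, each centred on its own mean, were N4BP2L2, YIPF4, EZR, AFDN and RALA, at root mean square distances of 0.020, 0.022, 0.022, 0.024 and 0.024. EZR, the membrane to actin linker ezrin, was at 341 ± 12.4 and 494 ± 7.0 TPM. Nearest to MTF1 were PIGY and PYURF, which are listed with identical values in all 6 libraries, at 0.032, and IFRD2 at 0.039. With 6 libraries in 2 groups, likeness of profile is mostly likeness of the group difference.

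Levels of cell type markers are given as a description. Being above 0 identifies no cell type, since 15045 to 15448 of the 17110 genes were above 0 per library. All 7 listed epithelial markers were above 0. Together they came to 2026 to 2033 TPM in parental and 26479 to 26688 TPM in sphere libraries, and 6 rose while 1 fell. The sum hides that KRT14 was scarce in parental libraries, at 4.69 ± 0.21 TPM against 7705 ± 79.5 TPM in sphere libraries. EPCAM was the marker that fell, from 311 ± 9.0 to 160 ± 12.8 TPM. KRT14 and EPCAM were named after their values were seen. KRT17, a keratin of activated keratinocytes, was the most abundant over all libraries, with means of 99.7 ± 3.8 (parental) and 9649 ± 129 TPM (sphere). Fibroblast markers summed to 11.7 to 12.2 and 15.6 to 17.1 TPM, with 1 of the 2 tested markers higher and 1 lower. The collagen gene COL1A1 rose from 8.15 ± 0.06 to 16.1 ± 0.9 TPM, and the growth factor receptor PDGFRB, named after its values were seen, fell from 2.63 ± 0.17 to 0.087 ± 0.045 TPM. COL1A2 and LUM were under 1 TPM in every library, and COL3A1 was listed at 0 in every parental library. Of the leukocyte markers, CD68, a lysosomal protein, was at 48.1 ± 2.6 and 176 ± 3.1 TPM, while PTPRC and CD3E were listed at 0 in all parental libraries and at no more than 0.2 TPM in any sphere library. Endothelial markers summed to 10.95 to 11.5 and 0.2 to 0.26 TPM, nearly all from the cadherin CDH5 in parental libraries. The part of these marker levels in the metallothionein differences was not tested. The correlation of log2(TPM + 1) across tested genes was r = 0.995 to 0.997 for libraries of one group and 0.840 to 0.842 for libraries of different groups, and genes are not independent replicates.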

How the data were processed

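Per the labels' protocols, Trizol was used for RNA extraction, and a BGISEQ-500 gave 50-base reads from one end. The authors deposited 1 table of TPM for 17110 genes, per the file headers. In the submitters' processing notes stand HISAT and Bowtie2, with no version, and GRCm38.p6, a mouse build, whereas 17052 of the gene IDs matched human Entrez IDs of the RefSeq table (GRCh38.p14). The sources used here name no counting tool or annotation, and the coordinates printed belong to the reference sequences only. Columns named Control were taken as parental, since the series has 2 groups.

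Genes with a mean of at least 1 TPM were tested with limma 3.58.1 (R 4.3.3) on log2(TPM + 1) values (mean-variance trend, two-sided, Benjamini-Hochberg over 12261 genes, threshold 0.05), with 4 residual degrees of freedom. This scale understates changes of scarce genes. TPM keeps no depth, so no counting interval is given. The fit was also run on simulated data with independent noise and few changed genes. That setting is unlike these data, so no result here rests on that run. Shared windows, motifs and identities were computed in Python 3.11.15 with biopython 1.88. The members and lists were chosen with earlier results of these data known. Named are all members and other metallothioneins in the table, the largest rise and fall past the threshold in each list, SLC30A1, SLC39A10, NR3C1, the nearest neighbours of the cluster, the 5 and 3 genes with profiles closest to the sum and to MTF1, and the most abundant marker of each cell type. FTH1, PDGFRB, SLC39A4, SLC39A13, KRT14 and EPCAM were named after their values were seen. Other settings tried were median-of-ratios scaling, a pseudocount of 0.1, a minimum mean of 5 TPM or no minimum, a fit with no trend, a replicate block, and each library left out in turn.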

Additional observations from a re-analysis of the deposited data

How the results depend on the processing

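Each member kept its direction and stayed past the threshold under every alternative that could be fitted; with a mean of at least 5 TPM, MT1G was not tested and 6 members passed. Median-of-ratios scaling moved the log2 difference of the summed metallothioneins from 0.50 to 0.68 and left 3 zinc exporters past the threshold in place of 5; under that scaling 52.0% of all calls were higher, against 42.2% as reported. Without MT2A, a sum chosen after seeing the data, that difference was 0.055. With 1 library left out it ran from 0.47 to 0.52, the MT1M difference from 1.23 to 2.13 and the MT1E difference from 0.11 to 0.17 (highest limma adjusted p over all MT1E alternatives 0.0394). With a pseudocount of 0.1 the MT1G difference was 4.93 in place of 1.99, since its parental libraries are listed at 0. With a replicate block 10192 genes passed in place of 10221, and all 7 members. The deviations of same-numbered libraries from the means of their groups correlated at 0.018, -0.018 and -0.055, so the numbers were not taken to pair them. TPM keeps no depth, so no counting error can be given for scarce genes such as MT1M and MT1G.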

Other observations

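MT1M varied far more between libraries of 1 group than genes of like level. Its SD within groups on the log2(TPM + 1) scale was 0.74, larger than that of 99.9% of the 3785 tested genes whose mean TPM lay within 0.5 to 2 times its own, whose median SD was 0.094. MT1X, at 0.097, exceeded 90.0% of 370 such genes, and MT1F, at 0.126, exceeded 82.3% of 4657. The shares were 67.2% of 4049 genes for MTF1 and 65.5% of 1394 for MT1G. All spread of MT1G comes from its sphere libraries, since its parental libraries are listed at 0, so its share is not like the others. MT2A exceeded 57.1% of only 7 such genes, and MT1E, at 0.048, exceeded 53.5% of 99. The reason was not tested.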
